A study of Mus musculus with 3 samples.

Results

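The 8 genes described here are the keratins of the inner root sheath of the hair follicle (*Krt25*, *Krt27*, *Krt28*, *Krt71*, *Krt72*, *Krt73* and *Krt75*) and trichohyalin (*Tchh*), chosen by symbol from the 32285 genes counted. They were followed in droplet-based scRNA-seq of dorsal skin from 25-week-old female C3H/HeN mice, in 3 libraries that each pooled the skin of 7 to 8 mice. The Neg library came from mice labelled as negative, vehicle-treated controls. The AA library came from mice in which alopecia areata (AA), an autoimmune loss of hair, was induced with skin-draining lymph node cells of an affected donor. The AA+Ab library came from AA mice given an antibody that neutralizes the chemokine CXCL12. With 1 pooled library per group, differences between mice cannot be told apart from differences between groups, so no test was possible. All intervals below are exact 95% intervals that cover counting error only.

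The inner root sheath is the rigid tube that surrounds and shapes the growing hair shaft, and it is formed only in growing follicles from cells of the hair matrix. Its filaments are built from type I keratins (KRT25, KRT27 and KRT28) that pair with type II keratins (KRT71, KRT72 and KRT73). KRT71 is known in the Henle, Huxley and cuticle layers of the sheath, KRT72 and KRT73 in its cuticle, and KRT75 in the companion layer outside it and in the medulla of the shaft. Trichohyalin fills the granules of the inner root sheath and medulla, where peptidylarginine deiminases modify it and transglutaminases cross-link it.

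The genes lie in 3 places in the mouse genome (GRCm38, GENCODE vM21). *Krt25* (ENSMUSG00000035831, chr11:99315516-99322951), *Krt27* (ENSMUSG00000017588, chr11:99345565-99351104) and *Krt28* (ENSMUSG00000055937, chr11:99364872-99374903) sit side by side in the type I keratin cluster, with *Krt26* between the first pair. *Krt75* (ENSMUSG00000022986, chr15:101563345-101573904), *Krt71* (ENSMUSG00000051879, chr15:101733949-101743109), *Krt72* (ENSMUSG00000056605, chr15:101776172-101786460) and *Krt73* (ENSMUSG00000063661, chr15:101793308-101802346) lie in the type II cluster on chromosome 15. All 7 keratin genes are on the minus strand, and *Tchh* (ENSMUSG00000052415, chr3:93442330-93449077) is on the plus strand of chromosome 3. The sequences upstream of the starts are shown because these genes were found together in the same cells, as described below. RefSeq promoters (GRCm38.p6) were matched for 8 of 8 genes, and 5 are printed 5′ to 3′, ending at the base before the RefSeq start except in *Krt71*. Capitals mark 4 motifs searched on both strands: TATAAA (the TATA box), AGATAA (bound by GATA factors), TAATTA (bound by Dlx and Msx homeodomain proteins) and CTTTGA (bound by LEF1). *Krt25* is chr11:99322952-99323201, *Krt28* chr11:99374904-99375153, *Krt71* chr15:101743110-101743347, *Krt73* chr15:101802361-101802610 and *Tchh* chr3:93442080-93442329. The *Krt71* stretch stops where the GENCODE gene begins and has 238 bases, and the others have 250 bases.
Krt25: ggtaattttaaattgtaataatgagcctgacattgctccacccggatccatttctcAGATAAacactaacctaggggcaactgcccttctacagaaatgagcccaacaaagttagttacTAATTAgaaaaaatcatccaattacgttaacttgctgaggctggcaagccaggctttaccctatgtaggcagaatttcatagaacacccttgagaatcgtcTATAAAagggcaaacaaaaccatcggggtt
Krt28: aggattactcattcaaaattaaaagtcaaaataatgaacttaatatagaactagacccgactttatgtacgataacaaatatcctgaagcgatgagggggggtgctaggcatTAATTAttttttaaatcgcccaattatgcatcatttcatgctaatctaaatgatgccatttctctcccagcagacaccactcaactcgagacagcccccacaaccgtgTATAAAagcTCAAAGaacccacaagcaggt
Krt71: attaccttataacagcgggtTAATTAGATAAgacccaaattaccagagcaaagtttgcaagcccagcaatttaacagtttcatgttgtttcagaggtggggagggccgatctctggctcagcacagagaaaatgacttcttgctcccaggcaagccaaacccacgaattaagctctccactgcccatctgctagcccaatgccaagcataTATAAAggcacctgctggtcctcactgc
Krt73: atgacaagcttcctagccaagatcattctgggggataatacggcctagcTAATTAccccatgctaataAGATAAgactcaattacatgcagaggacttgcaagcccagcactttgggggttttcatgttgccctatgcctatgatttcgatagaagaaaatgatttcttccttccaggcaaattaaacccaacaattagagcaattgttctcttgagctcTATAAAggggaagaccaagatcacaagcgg
Tchh: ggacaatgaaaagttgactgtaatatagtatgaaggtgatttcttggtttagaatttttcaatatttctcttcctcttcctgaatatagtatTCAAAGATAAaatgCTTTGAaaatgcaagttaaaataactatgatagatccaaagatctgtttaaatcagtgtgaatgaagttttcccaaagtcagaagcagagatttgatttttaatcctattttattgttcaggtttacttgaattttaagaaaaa
In *Krt71* the TAATTA and AGATAA matches overlap, and in *Tchh* the AGATAA match overlaps the reverse complement of CTTTGA. A same-strand TATAAA began 15 to 40 bases before the start in 5 of 8 genes, against 2.11% of the 32851 promoters in the table. It began at 15 bases in *Krt27*, at 40 in *Krt71* and at 30 in *Krt25*, *Krt28* and *Krt73*. The window's edges are thus the nearest and farthest of these matches, so this count is a description only. On either strand within 250 bases, TATAAA was present in 6 of 8 genes, against 12.4% of all promoters. AGATAA was present within 250 bases in 5 of 8 genes, against 9.99% of all promoters, and TAATTA in 4 of 8, against 4.84%. The upstream stretches of *Krt71* and *Krt73* shared a run of 14 bases and those of *Krt27* and *Krt71* one of 12. The genes are therefore not independent counts. CTTTGA was present in 2 of 8 genes, against 13.8%. *Krt75* held none of these letters and *Krt72* held TATAAA only as its reverse complement, 203 bases before the start. The members' upstream stretches were less GC-rich than most, with a median of 43.6% GC against 52.4%. Each match is a description of the letters and says nothing about binding in these cells.

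After cells with over 10% mitochondrial UMIs (unique molecular identifiers, 1 per captured RNA molecule) or under 200 genes were removed, 6582 Neg, 10433 AA and 9832 AA+Ab cells remained. They held 119193310, 135609481 and 139663314 UMIs, with medians of 13694.5, 11177 and 11371 UMIs per cell. Between 30 and 39 barcodes of each library also occurred in another library. Doublets were scored but kept. The share of cells scored as doublets was preset to rise with a library's number of barcodes (6965 in Neg, 10879 in AA and 10507 in AA+Ab). The resulting shares of 5.58%, 8.70% and 8.40% therefore do not measure how many doublets each library held. No library stood apart in mitochondrial share, with medians of 1.81% to 2.35%.

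Summed over all cells, the inner root sheath genes were most abundant in Neg skin, least abundant in AA skin and intermediate in AA+Ab skin. They took 86632 UMIs in Neg, 64975 in AA and 79557 in AA+Ab, which is 727, 479 and 570 counts per 1000000 UMIs (CPM). The log2 ratio of CPM was -0.60 for AA over Neg (interval -0.62 to -0.59), 0.25 for AA+Ab over AA (0.23 to 0.26) and -0.35 for AA+Ab over Neg (-0.37 to -0.34). These comparisons share libraries and are not independent of each other. The median log2 ratio over all genes tested was -0.06, 0.01 and -0.06 in the same order, so the member sum lay further below 0 in AA than the median gene.

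The type I keratins were lower in AA than in Neg and higher in AA+Ab than in AA. *Krt25*, the member with most UMIs in every library (UMIs are not divided by gene length), had 255 CPM in Neg (252 to 258), 163 in AA (161 to 166) and 182 in AA+Ab (180 to 184). *Krt28* had 132, 88.7 and 124 CPM, so that its AA+Ab level lay close to that of Neg, with a log2 ratio of -0.09 (-0.12 to -0.06). *Krt27*, the least abundant of the trio, had 43.7, 34.2 and 51.8 CPM and was higher in AA+Ab than in Neg, with a log2 ratio of 0.25 (0.19 to 0.30). The AA+Ab level was thus below Neg for *Krt25* and *Krt28* but not for *Krt27*. The AA over Neg log2 ratios were -0.64 for *Krt25*, -0.57 for *Krt28* and -0.36 for *Krt27*.

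The type II partner *Krt71* showed the largest difference between AA and Neg of the 8 genes and did not share the higher level in AA+Ab. Mutations of this gene give curly coats in rodents. It had 184 CPM in Neg (182 to 186), 94.9 in AA (93.3 to 96.6) and 75.7 in AA+Ab (74.3 to 77.2). Its log2 ratios were -0.96 (-0.99 to -0.92) for AA over Neg, -0.33 (-0.36 to -0.29) for AA+Ab over AA and -1.28 (-1.31 to -1.25) for AA+Ab over Neg. The levels were lowest in AA+Ab, and the intervals of the 3 libraries did not overlap. A few cells held a large share of its UMIs. The 10 cells with most member UMIs held 30.4% of the *Krt71* UMIs in Neg, 23.1% in AA and 12.7% in AA+Ab. Without these 10 cells the *Krt71* ratios were -0.82, -0.14 and -0.96 in the same order.

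The cuticle keratin *Krt73* was scarce, with 15.4 CPM in Neg, 10.8 in AA and 12.7 in AA+Ab. Its log2 ratio was -0.52 (-0.62 to -0.42) for AA over Neg and 0.23 (0.13 to 0.34) for AA+Ab over AA. With each cell thinned to 2000 UMIs the latter was -0.003 (-0.34 to 0.33), so its direction was not stable. *Krt72*, also a cuticle keratin, was close to undetected, with 8 UMIs in Neg, 7 in AA and 4 in AA+Ab. All 3 of its ratio intervals included 0, and of the 8 Neg UMIs 5 came from 1 cell.

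The genes that are not confined to the inner root sheath had the smallest differences between AA and Neg. *Krt75* had 24.7 CPM in Neg, 20.5 in AA and 33.5 in AA+Ab, and *Tchh* had 72.5, 66.6 and 90.4 CPM. The AA over Neg log2 ratios were -0.27 (-0.34 to -0.19) for *Krt75* and -0.12 (-0.16 to -0.08) for *Tchh*. Both were highest in AA+Ab, with AA+Ab over AA ratios of 0.71 (0.64 to 0.78) and 0.44 (0.40 to 0.48). Without the 10 cells with most member UMIs, the *Tchh* ratio was 0.01 (-0.04 to 0.06) for AA over Neg and 0.16 for AA+Ab over AA. With cells thinned to 2000 UMIs the latter was 1.05, so the size of the *Tchh* difference was not stable.

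*Krt72* lay under the minimum of 20 UMIs over the libraries compared and is left out of the following counts. Of the other 7 genes, none lay past 2-fold for AA over Neg, where 3.07% of the 19429 genes tested were at least 2-fold higher and 3.55% at least 2-fold lower. None lay past 2-fold for AA+Ab over AA, against 2.50% of all genes higher and 4.02% lower. For AA+Ab over Neg, 1 gene was past 2-fold lower, *Krt71*, against 3.52% of all genes lower and 1.94% higher. Intervals on 1 side of 0 were common at this depth. For AA over Neg, 7 of 7 intervals lay below 0, as did 34.3% of those of all genes, and 24.6% lay above. For AA+Ab over AA, 6 lay above 0 and that of *Krt71* below, against 29.8% and 30.3% of all genes. For AA+Ab over Neg, 3 lay above 0 and 4 below, against 19.7% and 31.6%. The makeup of the member sum differed accordingly. *Krt71* gave 25.3% of the member UMIs in Neg, 19.8% in AA and 13.3% in AA+Ab, and *Tchh* gave 9.97%, 13.9% and 15.9%. There were 1.92 type I UMIs per type II UMI in Neg, 2.27 in AA and 2.93 in AA+Ab.

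**Figure D1:**
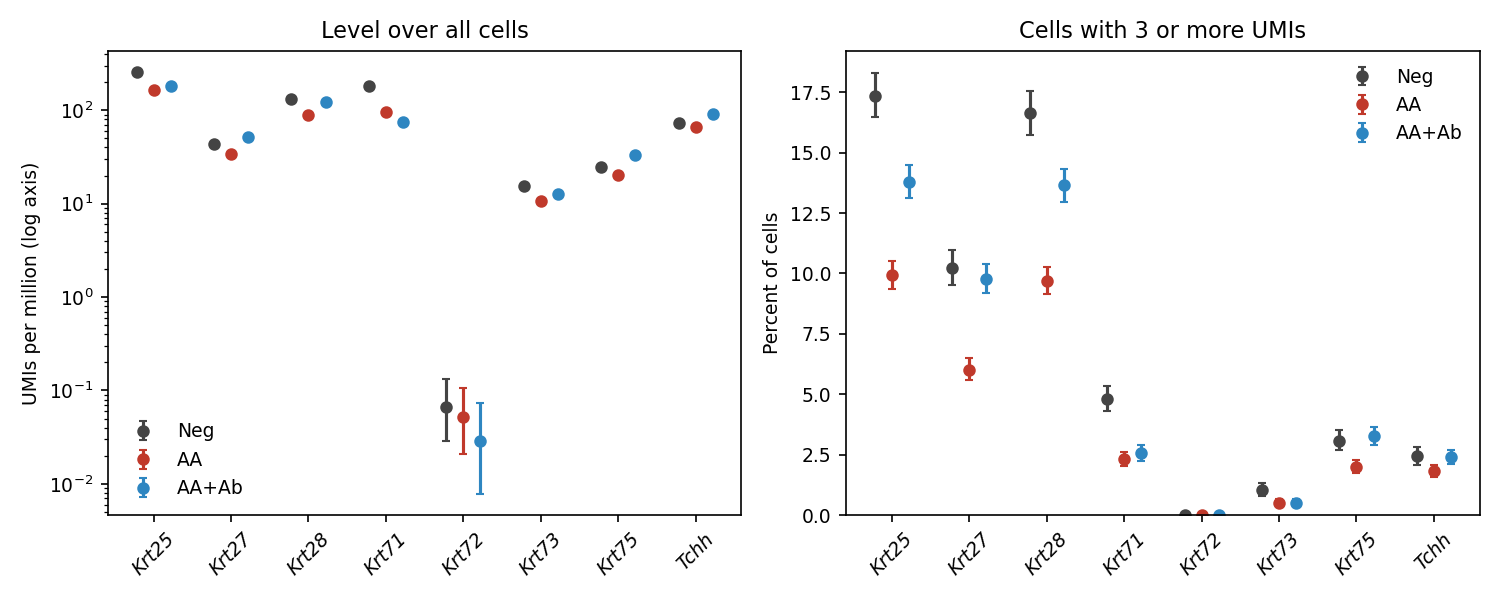
Level of each member over all cells (left, CPM on a log axis) and percent of cells with 3 or more of its UMIs (right) in the Neg, AA and AA+Ab libraries, with exact 95% counting intervals. *Krt25* is highest in each library, *Krt72* lies far below the others, and the AA points lie below the Neg points for every gene.

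**Figure D2:**
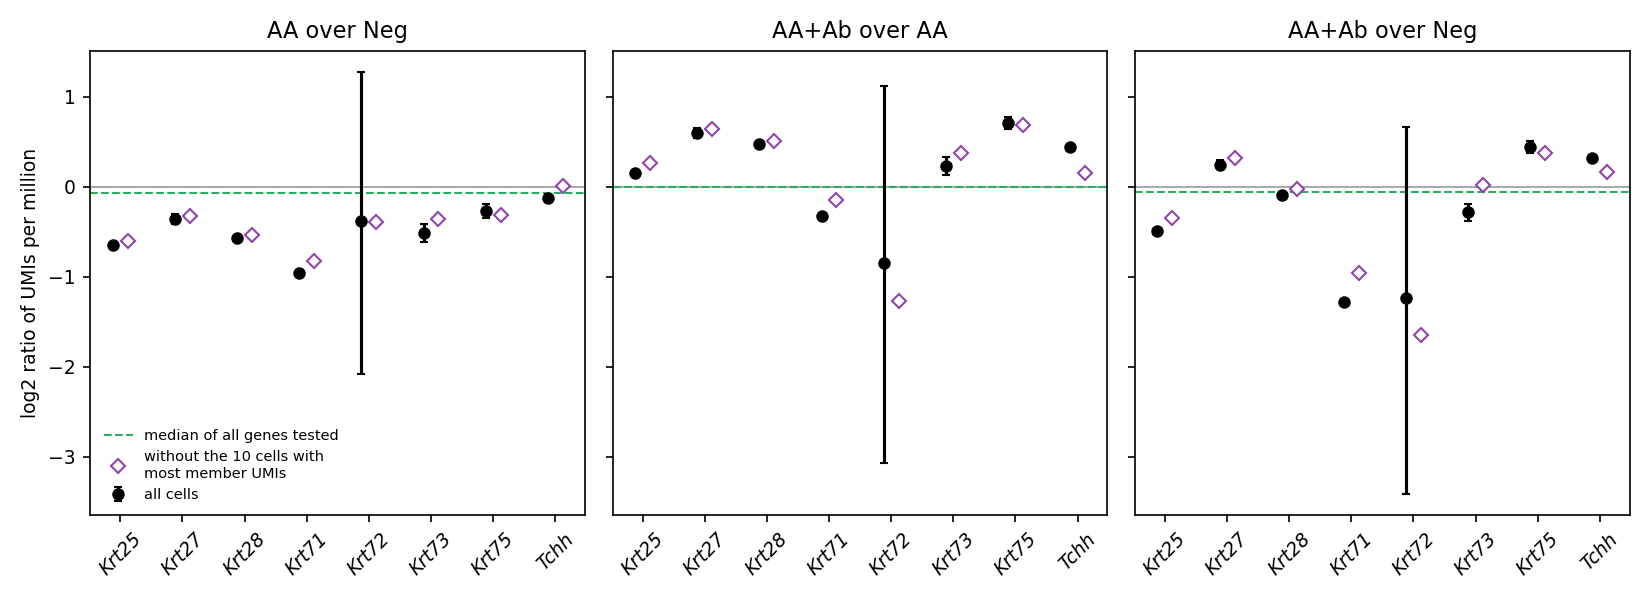
Log2 ratio of CPM for each member in the 3 comparisons, over all cells (black, with exact 95% counting intervals) and without the 10 cells per library with most member UMIs (open diamonds), with a dashed line at the median over all genes tested. *Krt71* is the lowest well-counted gene in each panel.

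The share of cells with these genes was lower in AA than in Neg, as was their level. *Krt25* was found with at least 3 UMIs in 1143 Neg cells (17.4%, 16.5 to 18.3), 1037 AA cells (9.94%, 9.37 to 10.5) and 1357 AA+Ab cells (13.8%, 13.1 to 14.5). *Krt28* was found in 16.6%, 9.69% and 13.6% of the cells and *Krt27* in 10.2%, 6.02% and 9.77%. The type II keratins were found in far fewer cells. *Krt71* reached 3 UMIs in 4.82% of Neg cells (4.31 to 5.36), 2.31% of AA cells (2.03 to 2.62) and 2.55% of AA+Ab cells (2.25 to 2.88), so the AA and AA+Ab intervals overlapped. *Krt73* reached it in 68, 54 and 49 cells (1.03%, 0.518% and 0.498%), *Krt75* in 203, 209 and 320 (3.08%, 2.003% and 3.25%), and *Tchh* in 160, 189 and 235 (2.43%, 1.81% and 2.39%). For *Krt75* and *Tchh* the share was thus lowest in AA and close in Neg and AA+Ab. *Krt72* reached it in 1 Neg cell, in 0 of 10433 AA cells and in 0 of 9832 AA+Ab cells.

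RNA set free from broken cells can add UMIs to cells that do not use a gene. Clusters not expected to use the members are therefore shown, but the source of their member UMIs was not tested. In the basal epidermis-like clusters, which had a median of 11410 to 12961 UMIs per cell, *Krt25* reached 3 UMIs in 0.07% to 0.13% of cells and *Krt71* in 0.03% to 0.11%. *Tchh* had the highest such share, 0.46% to 0.60%. The same clusters had at least 1 *Krt25* UMI in 12.4% of Neg, 5.50% of AA and 12.1% of AA+Ab cells. A single UMI was therefore not taken to mark a cell that uses the gene. In T cell-like cells, with medians of 3937.5 to 5483 UMIs, *Krt25* reached 3 UMIs in 1.65% of 121 Neg cells, 0 of 400 AA cells and 2.45% of 245 AA+Ab cells. *Krt71* was at 14.3, 6.89 and 140 CPM in these cells. The AA+Ab value came from 193 UMIs, with 3 cells at 3 or more.

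The molecules of these genes were packed into few cells, and how few depended on the gene. In Neg skin, 50% of the *Krt71* UMIs lay in 20 cells and 50% of the *Tchh* UMIs in 11, while *Krt25* needed 129 cells, *Krt28* 228 and *Krt27* 257. In AA the same count was 28 cells for *Krt71*, 14 for *Tchh* and 157 for *Krt25*, and in AA+Ab 28, 10 and 253. The highest single cell was a Neg cell with 4097 member UMIs, of which 2408 were *Krt71* and 1027 were *Krt25*. A further Neg cell had 3623, of which 1674 were *Krt71*, 1171 *Krt25* and 480 *Tchh*. Of the 10 cells with most member UMIs in each library, 0 were scored as doublets and 30 of 30 lay in the 5 clusters described below. In AA+Ab, 6 of these 10 cells carried almost only *Tchh* (502 to 1387 UMIs) with *Krt75* (39 to 123) and at most 1 UMI of *Krt25*. Cells with at least 100 *Krt71* UMIs numbered 47 in Neg, 40 in AA and 27 in AA+Ab.

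The type I keratins were found in the same cells, and most *Krt71* and *Krt73* cells contained them. Among *Krt25* cells, counting a gene as present from 3 UMIs, 76.1% of Neg, 73.8% of AA and 74.2% of AA+Ab cells also had *Krt28*. Among *Krt71* cells, 86.8%, 89.6% and 86.5% also had *Krt25*, where 17.4%, 9.94% and 13.8% of all cells did. The reverse share was smaller, since 24.1% of Neg and 20.8% of AA *Krt25* cells had *Krt71*, and fewer in AA+Ab (15.99%). Of the *Krt73* cells, 100%, 98.1% and 98.0% had *Krt25* and 70.6%, 68.5% and 61.2% had *Krt71*. *Krt27*, the least counted of the trio, was present in 35.3% to 37.5% of *Krt71* cells. *Krt71* was present in 16.3%, 6.70% and 8.44% of *Krt75* cells, against 4.82%, 2.31% and 2.55% of all cells. *Krt75* and *Krt73* were both present in 0 Neg, 2 AA and 1 AA+Ab cells, where independent genes of these shares would meet in 2.10, 1.08 and 1.59 cells, so too few cells were counted to set them apart.

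Trichohyalin appeared in cells of different kinds. Of the *Tchh* cells, 38.8% in Neg, 39.7% in AA and 47.7% in AA+Ab had *Krt75*, and 16.9%, 10.1% and 4.68% had *Krt71*. Of all cells, 3.08%, 2.003% and 3.25% had *Krt75* and 4.82%, 2.31% and 2.55% had *Krt71*, so both were more frequent in *Tchh* cells. *Krt25* accompanied *Tchh* in 41.2% of the Neg cells but in 21.7% of the AA and 23.0% of the AA+Ab cells. When each cell was thinned to 2000 UMIs, which left out 326 to 410 cells per library, at least 1 *Krt71* UMI was found in 5.35% of Neg, 2.65% of AA and 3.29% of AA+Ab cells. The thinned shares for *Krt25* were 13.3%, 8.14% and 11.6%, and for *Tchh* 2.999%, 2.98% and 3.83%.

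**Figure D3:**
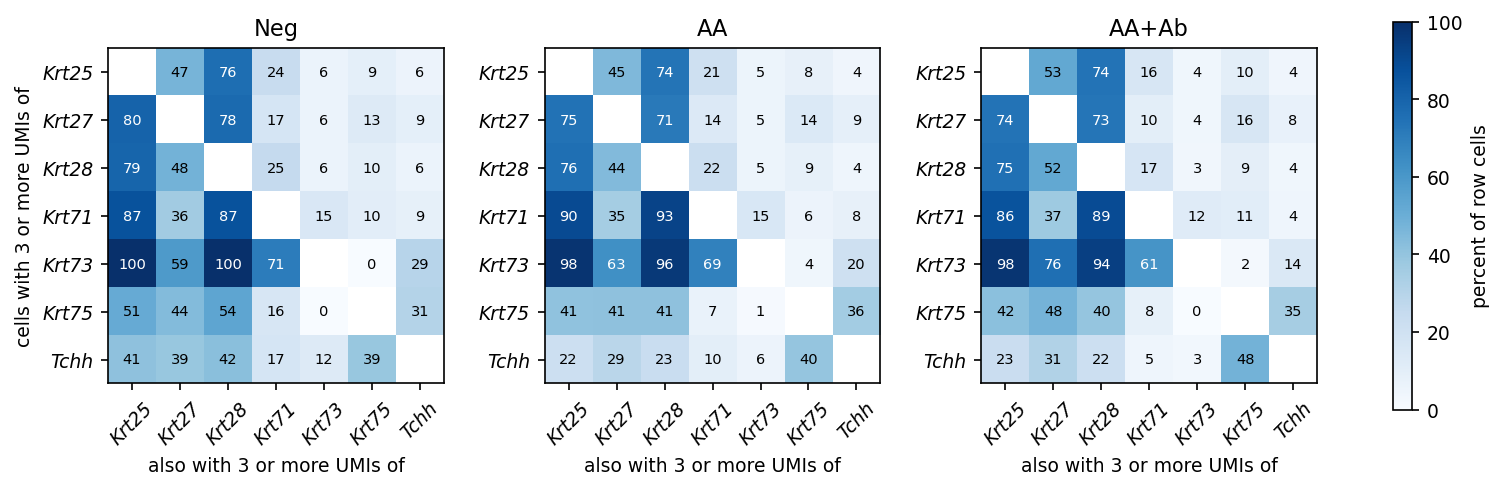
Co-detection of the members in each library (*Krt72* left out for want of cells), where each square gives the percent of cells with 3 or more UMIs of the row gene that also have 3 or more of the column gene, and diagonals are blank. The *Krt71* and *Krt73* rows are dark under *Krt25* and *Krt28*, while the *Krt75* row is pale under *Krt71* and *Krt73*.

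To see where these cells belong, the cells of the 3 libraries were clustered without the 8 genes. Of 30 clusters, 5 held 94.0% of the member UMIs in Neg, 93.9% in AA and 92.3% in AA+Ab (these clusters were singled out after their counts were seen). Cluster 5 was led by *Sox5*, *Ntn1*, *Foxe1* and *Cux1* and met no marker list. Cluster 6 was hair matrix-like, led by *Cdh6*, *Wif1* and *Shh*, the hedgehog ligand of the matrix. Cluster 9 passed 4 of the hair matrix markers and takes that name by the marker rule. None of these markers is among its 10 leading genes, so the name is not used here. The leading genes include *Fabp4*, *Csta1*, the deiminase *Padi3* and *S100a3*. Cluster 14 also takes the hair matrix name by the marker rule, with *Lef1*, *Msx2* and *Hoxc13*, but was led by the hair shaft keratin *Krt35* with *Selenbp1* and *Dsg4*. Cluster 17 resembled cluster 5, but 80.3% to 94.4% of its cells were scored as doublets.

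The share of cells in these clusters was lower in AA, while the level within them differed less. Together the 5 clusters held 24.7% of Neg cells (23.6 to 25.7), 16.2% of AA cells (15.5 to 16.96) and 22.1% of AA+Ab cells (21.3 to 23.0). Within them the summed level was 1744 CPM in Neg, 1597 in AA and 1442 in AA+Ab. The log2 ratio of this level was -0.13 for AA over Neg and -0.15 for AA+Ab over AA, against -0.60 and 0.25 over all cells. Without cluster 17 the shares were 22.7%, 15.3% and 20.7% and the ratios were -0.16 and -0.13. A share of cells depends on what else was released from the skin, and whether follicle cells were fewer in the tissue or less often recovered cannot be told apart. Over the keratinocyte clusters alone the summed ratios were -0.60 and 0.24. Within the 5 clusters *Krt71* had 452 CPM in Neg, 319 in AA and 188 in AA+Ab, log2 ratios of -0.50 and -0.76. *Krt28* differed there by -0.07 and 0.07, and *Tchh* was higher in AA and AA+Ab than in Neg (160, 198 and 216 CPM). The members thus did not share 1 direction within these clusters.

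The mix of members differed between clusters, although several members were shared. Cluster 5 combined *Krt71* (802 CPM in Neg, 657 in AA and 462 in AA+Ab) with *Krt25* (626, 692 and 523) and *Krt28* (427, 402 and 422), and had little *Krt73* (6.89, 10.8 and 6.17). Its *Krt71* log2 ratio was -0.29 (-0.33 to -0.25) for AA over Neg and -0.51 (-0.55 to -0.47) for AA+Ab over AA, while *Krt28* differed by -0.09 and 0.07. Without the 10 cells of each library with most member UMIs, these *Krt71* ratios were -0.14 and -0.48. Cluster 6 held *Krt25* (919, 662 and 611 CPM), *Krt28* (319, 321 and 347) and *Krt73* (63.7, 67.8 and 71.9), with 48.6%, 59.6% and 73.2% of the *Krt73* UMIs of the libraries. Its *Krt73* level differed between libraries by log2 ratios of 0.09 (-0.05 to 0.23) and 0.08 (-0.04 to 0.21), whose intervals include 0. Without the 10 top cells, however, the first was 0.53 (0.38 to 0.69). In cluster 6 *Krt71* was 402, 164 and 90.3 CPM and *Tchh* 141, 41.5 and 18.6 CPM. These differences rested in part on a few cells, since without the 10 top cells of each library *Krt71* was 201, 94.9 and 83.7 CPM and *Tchh* 33.3, 25.6 and 18.5 CPM.

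Cluster 9 was the place of *Tchh* and *Krt75*. *Tchh* had 959 CPM in Neg, 1176 in AA and 1281 in AA+Ab there, and *Krt75* had 374, 384 and 430 CPM. The cluster held 54.3%, 66.9% and 82.0% of all *Tchh* UMIs and 62.2%, 71.1% and 74.3% of all *Krt75* UMIs. *Krt71* was scarce in this cluster (15.7, 37.0 and 5.32 CPM). In AA 1 cell carried 177 of its *Krt71* UMIs, and without the 10 top cells the log2 ratio of AA over Neg changed from 1.23 to -2.60. Cluster 9 held 3.05% of Neg cells (2.65 to 3.50), 2.35% of AA cells (2.07 to 2.66) and 3.86% of AA+Ab cells (3.49 to 4.26). Without the 10 top cells its *Tchh* level was 753, 917 and 659 CPM, so that AA+Ab was then the lowest library and not the highest. *Krt75* was then 357, 356 and 384 CPM. Cluster 14, the *Krt35* cells, held *Krt25* at 323, 318 and 320 CPM and *Krt28* at 218, 182 and 229 CPM. The *Krt25* level there differed between AA and Neg by a log2 ratio of -0.02 (-0.13 to 0.09), but by -0.21 (-0.33 to -0.09) without the 10 top cells. *Tchh* was at 53.4, 151 and 29.9 CPM in cluster 14, where 1 AA cell held 556 of the 582 UMIs.

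**Figure D4:**
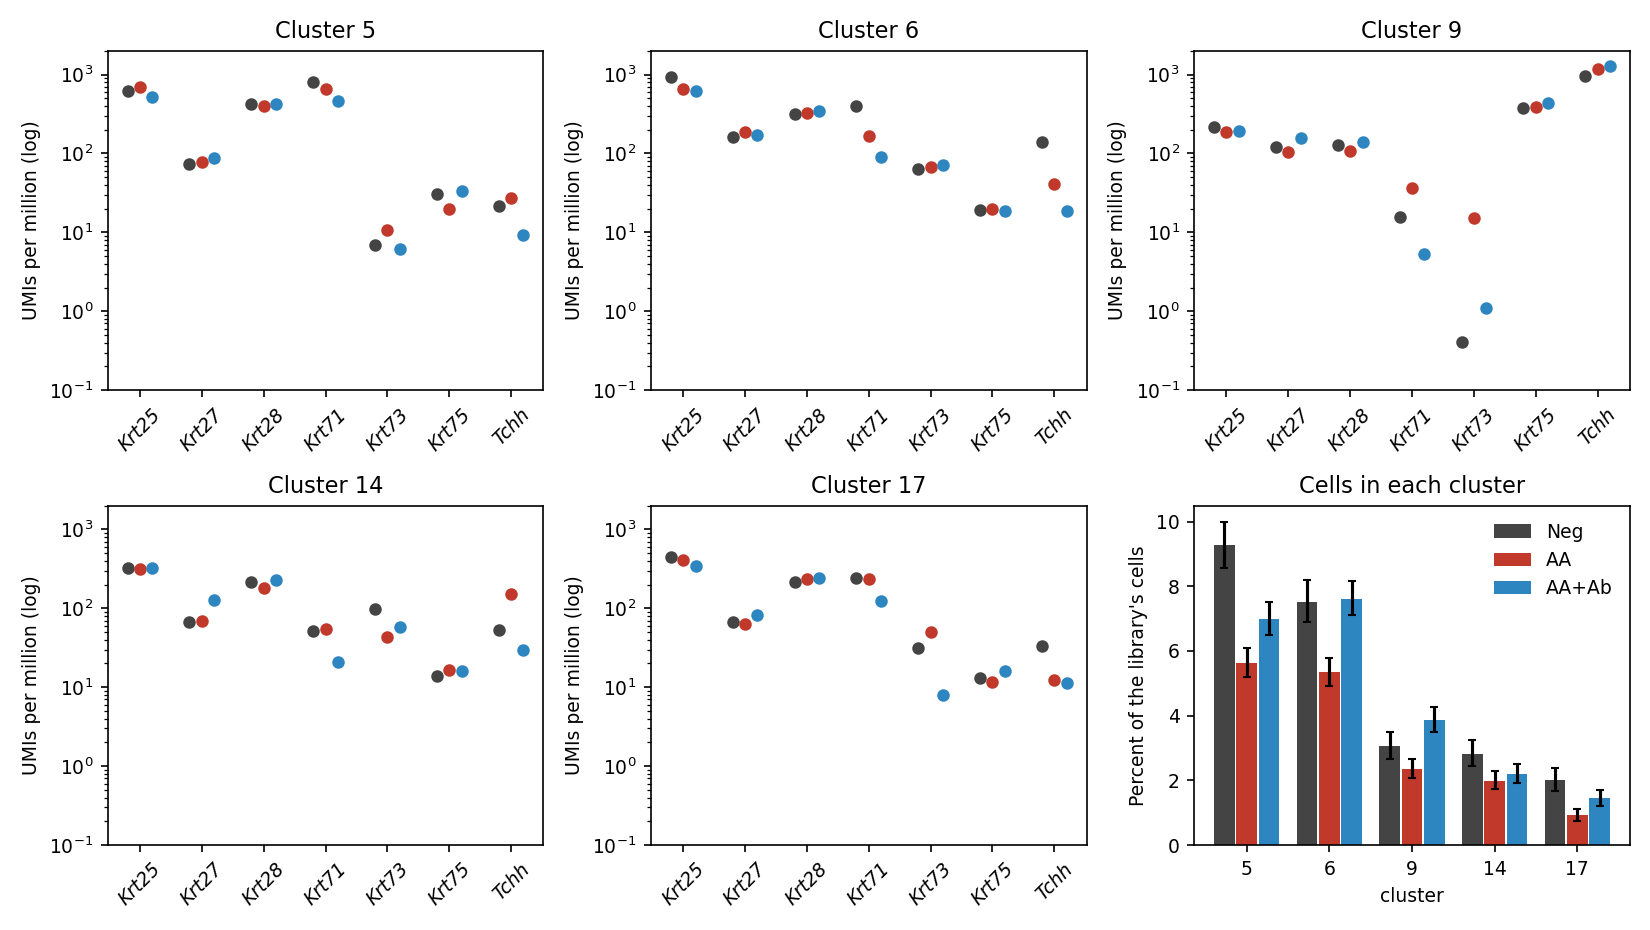
Level of 7 members in CPM (log axis) within the 5 clusters that held most member UMIs, by library, and the percent of each library's cells in these clusters (bars, with exact 95% intervals). The *Krt71* points of cluster 6 run from 402 in Neg to 90.3 in AA+Ab, and the AA bars are the lowest for each cluster.

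Sorting the cells by which members they held separated 5 patterns (chosen after the counts were seen). Cells with *Krt73* were 1.03%, 0.518% and 0.498% of Neg, AA and AA+Ab cells, and 60.3% to 69.4% of them lay in cluster 6. Their *Gata3* level, a transcription factor needed for the inner root sheath, was 542, 612 and 588 CPM. Cells with *Krt71* but no *Krt73* were 4.09%, 1.96% and 2.25% of cells, and 72.4% to 82.4% of them lay in cluster 5. *Gata3* was at 273, 253 and 249 CPM in these cells, and *Foxe1*, a forkhead factor of the follicle, was at 106, 99.8 and 95.6 CPM, against 30.6, 8.62 and 14.8 CPM in *Krt73* cells. Cells with *Krt75* but neither *Krt71* nor *Krt73* were 2.58%, 1.86% and 2.97%, and cluster 9 held 60% of them in Neg, 69.6% in AA and 78.1% in AA+Ab. They held *Padi3* at 101, 137 and 162 CPM and *Foxq1*, a factor of the medulla, at 199, 248 and 465 CPM. In *Krt71* cells without *Krt73*, *Foxq1* was at 5.77, 3.54 and 8.05 CPM.

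The largest pattern held type I keratins without the other members. Cells with *Krt25*, *Krt27* or *Krt28* and under 3 UMIs of *Krt71*, *Krt73*, *Krt75* and *Tchh* were 14.5% of Neg, 9.35% of AA and 13.6% of AA+Ab cells. Their largest share, 37.5% to 42.5%, lay in the matrix-like cluster 6, and *Lef1*, a Wnt-responsive factor of the matrix, was at 434, 590 and 466 CPM in them. In cells with *Krt71* but no *Krt73*, *Lef1* was at 126, 150 and 121 CPM. It was highest in cells with *Krt75* but neither *Krt71* nor *Krt73*, at 516, 708 and 605 CPM. The proliferation gene *Mki67* was at 368, 470 and 444 CPM in the type I cells and at 444, 607 and 538 CPM in the *Krt71* cells. Cells with *Tchh* but no *Krt71*, *Krt73* or *Krt75* numbered 70, 95 and 110 (1.06%, 0.911% and 1.12%), and 7.14%, 16.8% and 18.2% of them were scored as doublets. They lay in no single cluster, at most 33.6% of them in 1, and held the basal keratin *Krt14* at 5184, 6529 and 5833 CPM.

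Cells with at least 3 UMIs of at least 3 members (member-rich cells) numbered 688 in Neg (10.5%, 9.72 to 11.2), 581 in AA (5.57%, 5.14 to 6.03) and 811 in AA+Ab (8.25%, 7.71 to 8.81). They were deeply counted cells, with medians of 30715.5, 25195 and 27627 UMIs against 12883, 10852 and 10814 in other cells. Thinned to 2000 UMIs per cell, 0.4998% of Neg, 0.416% of AA and 0.382% of AA+Ab cells met the same rule, so no order of AA and AA+Ab is read from the share. Of the member-rich cells, 96.4%, 99.0% and 98.2% lay in the 5 clusters, which were singled out by their member UMIs.

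The follicle transcription factors were higher in member-rich cells than in other cells of the same library. Of 11 factors, 9 in Neg, 7 in AA and 8 in AA+Ab were at least 2-fold higher and none 2-fold lower, where 10.4%, 16.5% and 12.3% of all genes were at least 2-fold higher. *Dlx3* (146 against 36.4 CPM in Neg), *Msx2* (117 against 35.7) and *Cux1* (1095 against 334) were among them. *Gata3* was not, with 219 CPM in member-rich and 306 in other Neg cells. Between libraries, 0 of 11 factors differed 2-fold in member-rich cells, with median log2 ratios of 0.20 for AA over Neg and -0.25 for AA+Ab over AA. Of the genes with at least 50 UMIs in these cells, 0.561% were 2-fold higher and 2.16% lower in AA than in Neg. For AA+Ab over AA the shares were 1.08% and 1.73%, so a count of 0 does not set the factors apart from other genes. The 6 cycling genes were also higher in member-rich cells, 5 of 6 by 2-fold in Neg and 6 of 6 in AA and AA+Ab, and differed between libraries in these cells by medians of -0.01 and 0.13.

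Enzymes that act on trichohyalin were counted at low levels. Of the 8 enzymes, 4 in Neg and AA and 3 in AA+Ab were at least 2-fold higher in member-rich than in other cells. In each library 3 were at least 2-fold lower. Of all genes, 10.4%, 16.5% and 12.3% were higher and 17.8%, 16.7% and 19.1% lower in Neg, AA and AA+Ab. *Padi3* was at 18.8 CPM in member-rich and 4.81 in other Neg cells, 28.8 and 4.82 in AA, and 25.3 and 7.88 in AA+Ab. *Padi4* was at 7.69 and 1.95 CPM in Neg. *Tgm3*, the transglutaminase known for cross-linking trichohyalin, was at 13.3 and 9.82 CPM in Neg and at 17.1 and 17.7 in AA. Of the 8 enzymes, 0 differed 2-fold between AA and Neg over all cells, with a median log2 ratio of -0.06. Of all genes, 3.07% were 2-fold higher and 3.55% lower there. In AA+Ab, 1 was 2-fold higher (*Padi4*, 1.30) and 1 lower (*Tgm5*, -1.13) than in AA, against 2.50% and 4.02% of all genes. *Krt26*, the remaining type I sheath keratin in the gene list, was at 2.35, 1.88 and 3.12 CPM over all cells and at 5.46, 9.44 and 10.5 CPM in member-rich cells. *Tchhl1*, a relative of trichohyalin, was at 1.64, 1.09 and 3.64 CPM. It was 3.51 log2 units higher in member-rich than in other cells in Neg and 4.29 in AA, but 0.34 in AA+Ab. Of the 6 genes of this fused S100 family, 5 had enough UMIs and 2 were 2-fold lower in AA than in Neg, where 3.55% of all genes were. These were *Crnn* (0.621, 0.147 and 0.0358 CPM) and *Flg* (0.403, 0.192 and 0.322 CPM), and with *Rptn* and *Hrnr* they were below 1 CPM in every library.

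Most companion layer, outer sheath and interfollicular keratins were lower in member-rich cells. Of the companion layer and outer sheath keratins with enough UMIs, 5 of 6 were at least 2-fold lower than in other cells of each library, as were 2 of 3 interfollicular keratins, where 17.8%, 16.7% and 19.1% of all genes were in Neg, AA and AA+Ab. Of the hair shaft keratins with enough UMIs, 4 of 8 in Neg, 1 of 5 in AA and 3 of 7 in AA+Ab were 2-fold lower, and 1 was 2-fold higher in AA+Ab. *Krt14* was at 1016, 596 and 670 CPM in member-rich and at 6054, 7417 and 6487 CPM in other cells. The hair shaft keratin *Krt35* was at 102, 44.1 and 96.8 CPM in member-rich cells, a log2 ratio of -1.21 for AA over Neg and 1.13 for AA+Ab over AA. Of 13 hair shaft keratins, 8 had enough UMIs over all cells for AA over Neg, with a median log2 ratio of -0.53 and 0.98 for AA+Ab over AA. Of the adhesion and protease genes, 5 of 7 in Neg, 3 of 5 in AA and 4 of 7 in AA+Ab were at least 2-fold lower in member-rich cells, read against the same shares of all genes. Over all cells 2 of 7 were 2-fold lower in AA than in Neg, against 3.55% of all genes. In AA+Ab 3 of 7 were 2-fold higher than in AA, against 2.50% of all genes.

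Interferon-response genes were higher in AA. Over all cells, 5 of 8 were at least 2-fold higher in AA than in Neg, with a median log2 ratio of 1.38, against 3.07% of all genes. In member-rich cells 4 of 7 were, against 0.561% of the genes with at least 50 UMIs over both libraries there. The list genes needed only 20 UMIs, so the shares in member-rich cells are not on like terms. In AA+Ab, 6 of 8 were at least 2-fold lower than in AA over all cells, against 4.02% of all genes, and 4 of 8 in member-rich cells, against 1.73%. *B2m*, the light chain of MHC class I, was at 165, 199 and 146 CPM in member-rich Neg, AA and AA+Ab cells. *B2m* was at 1003, 1322 and 1197 CPM in other cells.

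Among the other genes of member-rich cells, several of those furthest from equal had most of their UMIs in 1 cell. Higher in AA than in Neg were *Tlx3*, *Dkk4*, *M1ap*, *Ccl2* and *Egfem1*, with log2 ratios of 2.18 to 2.35, and *Tlx3* had 135 UMIs in 18 AA cells against 41 in 12 Neg cells. Lower in AA were the muscle genes *Car3*, *Myoz1*, *Cox6a2*, *Des* and *Tnnt3*, with ratios of -5.65 to -4.10. A single Neg cell held 90.1% of the 7839 UMIs of the 4 skeletal muscle markers in member-rich Neg cells. In the 5 clusters alone the *Tnnt3* ratio was -0.34 and that of *Car3* -1.35. Higher in AA+Ab than in AA were *Cd3g*, *Ifitm6*, *Trdc*, *Ctla2a* and *Slc22a20*, with ratios of 3.43 to 4.55. Of the *Ifitm6* UMIs of AA+Ab, 95.6% lay in 1 cell, and in the 5 clusters alone its ratio was -0.13, against 1.26 to 3.45 for the other 4. The 3 gamma-delta T cell markers had 51, 6 and 138 UMIs in member-rich Neg, AA and AA+Ab cells, in 1, 0 and 8 cells with at least 3, and all were detected in each library. Lower in AA+Ab were *Hes5*, *Stfa2*, *Stac*, *Gm44148* and *Oasl2*, with ratios of -3.33 to -2.45, and 63.6% of the *Hes5* UMIs of AA lay in 1 cell. All 4 fibroblast markers were detected in member-rich cells, at a sum of 767, 956 and 1039 CPM in Neg, AA and AA+Ab. Other cells had 191, 296 and 231 CPM. A single cell held at most 1.02% to 1.93% of these UMIs among the member-rich cells of a library. At least 3 of them were found in 423 of 688, 359 of 581 and 553 of 811 member-rich cells, so they were widely spread. The 4 sebaceous markers were also higher in member-rich cells (598, 560 and 529 CPM) than in other cells (256, 251 and 251). The 5 T cell markers were lower (13.2, 6.87 and 23.2 against 135, 94.1 and 140 CPM). Whether these UMIs came from cells of other types, and the part of such cells in the member levels, was not tested.

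The 10 genes whose level was most like the member sum over 70 units of cluster and library (28 clusters with at least 50 cells in a library) were, in order, *Dlx3*, *Msx2*, *Mycn*, *Dlx2*, *Msx1*, *Slc39a10*, *Dlx4*, *Slc30a1*, *D10Wsu102e* and *Msi1*. Pearson's r of log2(CPM + 1) was 0.94 for *Dlx3*, 0.91 for *Msx2* and 0.88 for *Msi1*. The units share libraries and cells of like depth, so r is a description. Of the 10 genes, 5 encode Dlx or Msx homeodomain factors, which act in hair matrix and shaft differentiation. Among the members themselves, *Krt25* and *Krt28* (r = 0.94) and *Krt27* and *Krt28* (0.93) were most alike. *Krt75* was most like *Krt27* (0.84), and *Tchh* was like *Krt75* (0.74) but not *Krt71* (0.18).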

How the data were processed

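Skin cells of 3 groups (Neg, AA and AA+Ab, 1 library of pooled mice each) were profiled by 10x 3′ scRNA-seq. The submitters' processing notes name Cell Ranger 7.2.0, FastQC 0.11.7 and the mm10 build. The deposited values are raw UMI counts, made by the authors without normalization, and the annotation release is not given in the sources used here. Counts from 3′ ends are not divided by gene length.

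Cells with at most 10% mitochondrial UMIs and at least 200 genes were kept, as in the study's methods. Doublets were scored from simulated doublets in each library and kept. The share of cells scored as doublets was preset from the library's number of barcodes. CPM was taken over all UMIs of the kept cells. Sums have Poisson, ratios conditional binomial and shares Clopper-Pearson intervals at 95%. A ratio needed 3 UMIs in each library, and 20 over both for the count of genes past 2-fold. Cells were clustered without the 8 genes (2000 variable genes, 30 principal components, 20 neighbours, Leiden resolution 0.8, no integration). Names of cell classes rest on marker lists. With 1 library per group no test was run, and 379 Neg, 326 AA and 410 AA+Ab cells were too shallow for thinning to 2000 UMIs. The ratio code was tested on simulated data. Python 3.11.15 was used with numpy 2.4.6, scipy 1.17.1, pandas 2.3.3, scikit-learn 1.9.0, scanpy 1.11.5, leidenalg 0.10.2 and matplotlib 3.10.9.

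The genes named were the 8 members, 10 gene lists given as counts with examples, the 10 genes most like the member sum (at least 100 UMIs), and, in member-rich cells, the 5 highest and 5 lowest genes by ratio for AA over Neg and AA+Ab over AA (at least 50 UMIs over both, 3 in each). The genes shown by pattern were chosen after their values were seen. The members and lists were chosen with earlier results of these data known. The alternatives changed the cell filter, denominator, doublets, depth, UMI minimum and cluster resolution.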

Additional observations from a re-analysis of the deposited data

How the results depend on the processing

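The direction of the summed member level was the same under every alternative tried. The log2 ratios of AA over Neg and AA+Ab over Neg were -0.53 and -0.28 with a mitochondrial limit of 5%, and the latter was -0.37 without barcodes shared between libraries. AA over Neg and AA+Ab over AA were -0.64 and 0.30 with a denominator without mitochondrial, ribosomal and hemoglobin genes, and -0.57 and 0.21 without scored doublets. The 3 ratios (AA over Neg, AA+Ab over AA, AA+Ab over Neg) were -0.53, 0.30 and -0.23 without the 10 cells with most member UMIs, and -0.58, 0.27 and -0.31 without the top cell (chosen after seeing the data). With cells thinned to 2000 UMIs, AA+Ab over AA was 0.43 and AA+Ab over Neg -0.16. Of the single genes, *Krt73* for AA+Ab over AA became -0.0029 when thinned, and without the 10 top cells *Tchh* for AA over Neg became 0.011 and *Krt73* for AA+Ab over Neg 0.022. The cause of these changes was not tested. Member-rich cells in Neg, AA and AA+Ab were 22.03%, 12.0004% and 17.8% with at least 1 UMI of each of 3 members, 5.83%, 2.87% and 4.31% with 5, and 2.39%, 1.16% and 1.43% with 10. They were 0.4998%, 0.416% and 0.382% when thinned, and 11.9%, 6.198% and 9.25% of the keratinocyte clusters (chosen after seeing the data). *Krt71* cells with *Krt25* were 55.2%, 57.2% and 54.3% at a minimum of 1 UMI, 77.3%, 81.7% and 80.5% at 10, and 52.3%, 62.3% and 59.8% when thinned. The 3 leading clusters held 82.6%, 84.9% and 83.1% of member UMIs. They held 94.0%, 94.1% and 92.4% at a resolution of 0.4, 71.9%, 70.4% and 71.4% at 1.5, and 78.0%, 78.4% and 75.7% with the members kept among the variable genes. Of genes past 2-fold, 597 were higher and 690 lower in AA than in Neg, 486 and 782 in AA+Ab than in AA, and 377 and 685 in AA+Ab than in Neg. With a minimum of 100 UMIs these were 346 and 218, 188 and 447, and 154 and 212, as fewer genes were counted. In member-rich cells, 71 genes were 2-fold higher and 273 lower in AA than in Neg, and 134 higher and 215 lower in AA+Ab than in AA. With 5 members required, AA over Neg gave 110 higher and 107 lower and AA+Ab over AA gave 47 higher. With 10 UMIs required, AA over Neg gave 43 higher and 119 lower. In member-rich cells of the 5 clusters alone (chosen after seeing the data), 125 were lower in AA than in Neg and 86 higher in AA+Ab than in AA. No paired analysis was possible because each group had 1 library, and no replicate could be left out.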
